A study of Mus musculus with 6 samples.

Results

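DNA recovered from mouse embryonic stem cells with an antibody against SMAD1/5 was set against the input chromatin of the same preparation on a pair of promoter arrays. These 2 arrays, titled SMAD1/5, were the members of this comparison, out of 6 arrays in the series, and the other 4 carry SMAD2 and SMAD4 immunoprecipitates with inputs of their own. All 6 arrays come from R1, a line of mouse embryonic stem cells kept undifferentiated and without feeder cells in serum replacement with leukemia inhibitory factor and with no treatment. Immunoprecipitated DNA carried the red dye Cy5 and whole cell extract DNA, the input, the green dye Cy3, with no dye swap, so a dye effect and enrichment cannot be told apart. The SMAD1/5 antibody was raised against the linker of human SMAD1, and the series gives 1 biological replicate per antibody. No p-value is therefore given, and each SD below is over the probes of 1 region on 1 array, not over experiments. No array of cells given or deprived of BMP was analysed here.

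SMAD1 and SMAD5 are the receptor-activated SMAD proteins of BMP signalling. Type I BMP receptors phosphorylate them, they bind the shared partner SMAD4, and the complexes enter the nucleus, where they contact GTCT-like elements and GC-rich elements and act with other transcription factors. In mouse embryonic stem cells, BMP together with leukemia inhibitory factor is known to support self-renewal, in part through the Id genes, which encode inhibitors of basic helix-loop-helix factors.

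The SMAD1/5 arrays had wide ratios and inputs that were dim against their local background. The input was well above its local background for 72.3% and 87.0% of probes on arrays 1 and 2, and the immunoprecipitate for 95.8% and 96.2%. The input shares were 88.5% and 86.1% with SMAD2 and 99.6% and 99.7% with SMAD4, so SMAD1/5 array 2 was level with SMAD2. The median ratio of input signal to background was 2.35 and 2.73 with SMAD1/5. It was 7.45 and 6.90 with SMAD2 and 5.36 and 5.05 with SMAD4. After each array was centred on its median, the log2 ratio of immunoprecipitate over input had an SD over single probes of 1.93 and 1.76. The SDs were 0.93 and 0.91 on the SMAD2 arrays and 0.99 and 0.98 on the SMAD4 arrays. Neighbouring SMAD1/5 probes, a median of 179 and 178 bp apart, correlated at r = 0.30 on both arrays. That correlation was 0.10 and 0.09 for probes a median of 383 and 380 bp apart. Probes are not replicates, and nearby probes read the same DNA fragments.

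A region of 1 kb, called a window, was counted as raised when it held at least 4 probes, each with a log2 ratio of 1 or more, which is 2-fold above the array median, and each well above background in both channels. A lowered window met the mirrored condition. Of 14761 genes with at least 1 window bright enough to be called, 790 had a raised window, which is 5.35% of them, and 1754 had a lowered one, 11.9%. There were 72 genes with both. The raised windows formed 789 separate regions and the lowered windows 1798. Lowered genes thus outnumbered raised genes, and these shares are the background against which each gene list below is read. That background is not matched for probe number, and a gene with more probes has more windows that can be called. The median number of probes per gene was 28 over all genes, 41 for BMP targets and 20 for clustered histone genes. With the mean spot signal minus the local background in place of the processed signal, 768 genes were raised and 705 lowered, and 445 and 671 of these were among the genes above.

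The 15 highest raised genes also raised with the mean signal minus background held window means between 2.63 and 3.18 on the log2 scale. Myo6, which encodes a myosin that moves toward the minus end of actin filaments, had the highest mean, 3.18 ± 0.71 (SD over 4 probes), 2906 bp upstream of its start site, at chr9:80238370-80238898 in the array annotation. Its 4 probes had processed signals of 1409 to 7391 in the immunoprecipitate and 113 to 738 in the input. Klhl26, of the kelch-like family of ubiquitin ligase adaptors, had a mean of 3.08 ± 0.44 over 6 probes centred 740 bp upstream, at chr8:68932319-68933285 in the array annotation. Those 6 probes had log2 ratios of 3.67, 2.66, 2.56, 2.98, 3.14 and 3.46 from the one nearest the start site outward, so none was under 2.5. Their immunoprecipitate signals ran from 2695 to 6645 and their input signals from 136 to 382. The same probes averaged 0.47 with SMAD2 and -0.78 with SMAD4.

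Inside their genes, Camk2g and Tmem138 gave raised windows of different evenness. Camk2g, the gamma subunit of calcium/calmodulin-dependent protein kinase II, averaged 2.91 ± 0.89 over 6 probes centred 1854 bp into the gene, with probes between 1.98 and 3.97. Tmem138, a protein of primary cilia, averaged 2.69 ± 0.15 over 4 probes centred 3149 bp into the gene, with probes between 2.58 and 2.91. The Tmem138 probes therefore varied far less than the Camk2g probes. Camk2g, unlike Tmem138, was also raised with every other treatment of the signal described below. Cenps, a centromere and DNA repair protein, averaged 3.01 ± 0.71, and Ldha, the A subunit of lactate dehydrogenase, 2.77 ± 0.65 at 5383 bp upstream. Ccdc92b averaged 2.90 ± 0.78 in a window 31825 bp past its start site, which the array annotation places downstream of the gene. Selenom, a selenoprotein of the endoplasmic reticulum, averaged 2.77 ± 0.73, Lypd3, a membrane-anchored cell surface protein, 2.73 ± 0.72 and Hsd11b1 2.72 ± 0.40. The remaining 5 genes, Ccng1 (cyclin G1), Map2k5 (a MAP kinase kinase), Moxd2, Tram2 and Klhl28, averaged between 2.63 and 2.67.

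Hsd11b1 encodes the enzyme that regenerates active glucocorticoid. It was the one gene of these 15 with a raised window centred within 500 bp of its start site, so its promoter is shown. The 4 probes of its highest window, between 351 and 742 bp into the gene, had log2 ratios of 2.98, 2.16, 3.02 and 2.73 in order from the start site. The sequence below is the RefSeq promoter at chr1:193242311-193242610 of GRCm38.p6, minus strand, 250 bp before to 50 bp after the start site, with matches to the searched motifs in capitals.
Hsd11b1: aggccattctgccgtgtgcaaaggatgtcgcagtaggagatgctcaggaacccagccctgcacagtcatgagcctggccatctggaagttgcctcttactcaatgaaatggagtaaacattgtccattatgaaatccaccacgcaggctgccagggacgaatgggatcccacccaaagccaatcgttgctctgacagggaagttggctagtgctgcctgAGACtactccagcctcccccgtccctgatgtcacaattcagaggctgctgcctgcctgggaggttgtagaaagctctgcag
The motifs were GTCT, CAGAC, GTCTAGAC and GGCGCC, each on both strands. They overlap: the reverse complement of CAGAC contains GTCT, and GTCTAGAC contains it as well. The Hsd11b1 promoter held 1 match to GTCT, as its reverse complement AGAC, and none to the other 3. Over all 32851 promoters of this length in the table, 88.0% held GTCT, 49.6% CAGAC, 11.9% GGCGCC and 0.213% GTCTAGAC. A match is a description of the letters and not a binding site. No source used here gives the build of the array positions, so no probe was placed on this sequence by coordinates. By distance, the 4 probes of the highest window lie beyond its end, provided that both sources use the same start site.

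The raised calls depended on how the signal was processed, and 16 of the 790 genes were raised with all 5 treatments of the signal. These were the processed signal, the mean signal minus background, the normexp background correction, the authors' deposited log2 values and the mean of the 3 antibodies' inputs as the denominator. Another 26 genes were raised with all but 1 of the alternatives, and 261 with none of them. Of the 15 highest genes, Myo6 and Ccdc92b lost their calls with normexp alone. Ldha, Lypd3 and Hsd11b1 lost theirs in the authors' values alone. Cenps, Tmem138, Map2k5, Moxd2, Tram2 and Klhl28 were raised neither with normexp nor in the authors' values. Ccng1 was raised only with the mean signal minus background. Klhl26, Camk2g and Selenom were among the 16, with Adgrf1, an adhesion G protein-coupled receptor, at 2.62 ± 1.17, and Utp6, a factor of ribosomal RNA processing, at 2.52 ± 0.60. Vangl2, a core protein of planar cell polarity, averaged 2.34 ± 0.45 over 4 probes centred 1302 bp into the gene. Leap2, an antimicrobial peptide of liver, averaged 2.44 ± 0.69, and Tm6sf1 2.35 ± 0.85. Wwc2, of the WWC family of Hippo pathway regulators and on chromosome 8, averaged 2.16 ± 0.62, and Map3k9, a kinase upstream of JNK, 1.81 ± 0.38. Draxin, a repulsive axon guidance protein, and Mad2l2, a subunit of DNA polymerase zeta, share 1 window, at 2.09 ± 0.38 over 5 probes. The other 4 were Plxdc1, Meak7, Stambpl1 and Alox12, between 1.59 and 1.88. Wwc2 and Meak7 were not raised once each chromosome was centred on its own median. Apart from Klhl26, Camk2g and Selenom, the genes of the 16 were chosen after their values were seen.

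Kdm6b, the histone demethylase that removes methyl groups from lysine 27 of histone H3, had a raised window of 7 probes. These probes, centred 5922 bp upstream at chr11:69500763-69501657 in the array annotation, averaged 2.27 ± 0.94. From the probe nearest the start site outward they read 1.52, 3.86, 1.67, 1.75, 1.50, 2.35 and 3.27. The immunoprecipitate signals were 2144 to 16681 and the input signals 163 to 4312. The same window averaged 0.23 with SMAD2 and -0.03 with SMAD4. Kdm6b was also raised with the mean signal minus background, with normexp and in the authors' values, but not over the mean input of the 3 antibodies. In this window the SMAD1/5 immunoprecipitate lay 0.78 above the mean of the other 2 immunoprecipitates and the SMAD1/5 input 0.96 below the mean of the other 2 inputs, on the log2 scale. Across the gene, 30 of its probes were at 1 or more and 17 at -1 or less, with a median of 0.47. Dpysl2, a cytoskeletal protein of growing axons, had no window bright enough to be called, and its highest window averaged 1.17 ± 2.62 over 6 probes.

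**Figure D1:**
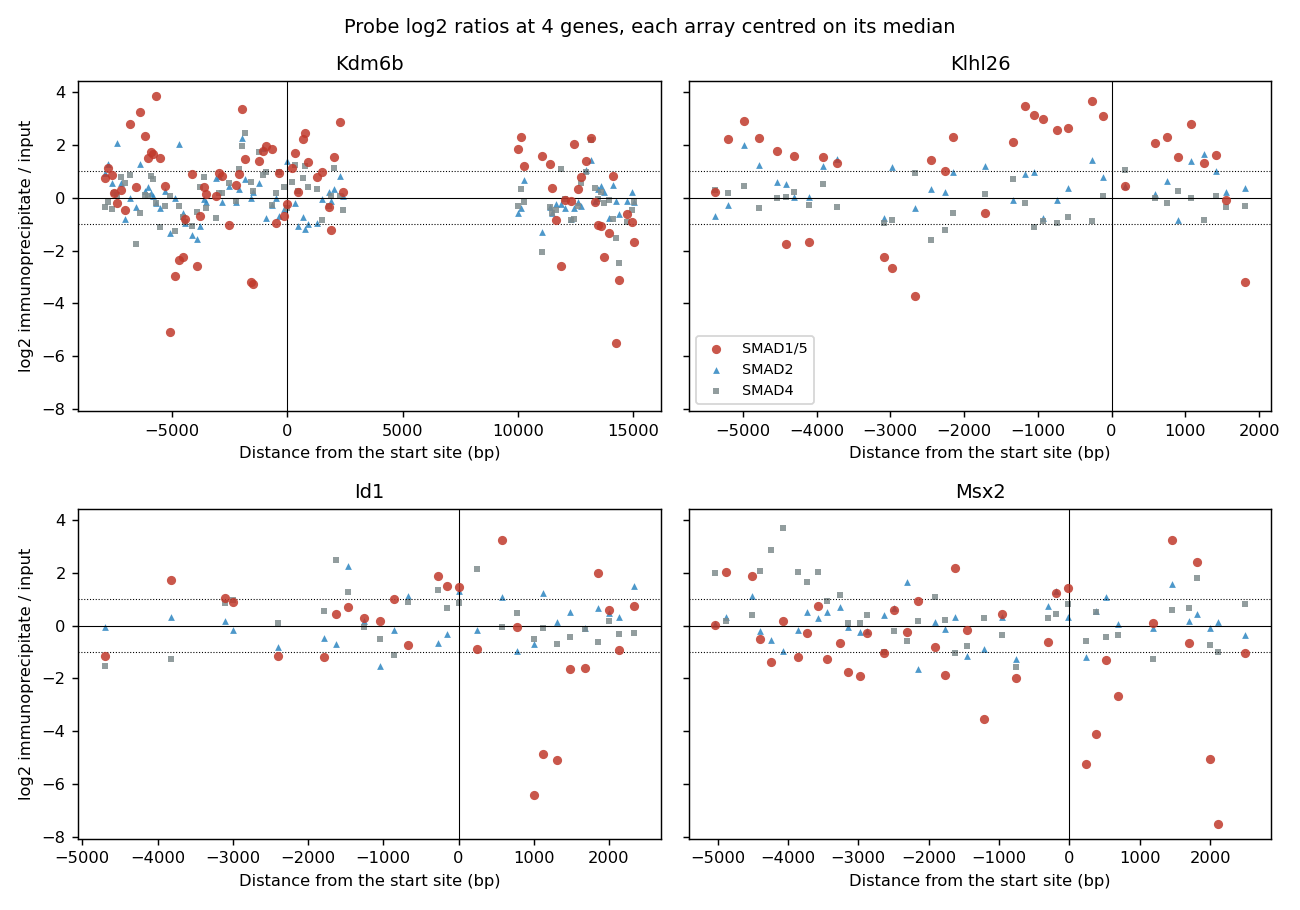
Probe log2 ratios of immunoprecipitate over input (vertical axis) against distance from the start site in bp (horizontal axis) at Kdm6b, Klhl26, Id1 and Msx2, with SMAD1/5 as circles, SMAD2 as triangles and SMAD4 as squares. Dotted lines mark 1 and -1. SMAD1/5 probes of Klhl26 stand between 2.56 and 3.67 around 740 bp upstream, while SMAD1/5 probes of Id1 and Msx2 reach -6.41 and -7.51.

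The 22 measured BMP target genes gave 1 raised and 6 lowered members, 4.55% and 27.3% of the list. The shares over all genes were 5.35% and 11.9%. BMP targets had a median of 41 probes per gene, against 28 over all genes, so more of their windows could be called. The median of the gene medians of BMP targets was -0.17, against 0.02 for all genes. Hey1, a helix-loop-helix repressor shared with Notch signalling, was the raised member. Its 5 probes centred 1444 bp upstream read 1.72, 1.96, 2.58, 1.68 and 1.17, with immunoprecipitate signals of 496 to 3647 and input signals of 79 to 635. Hey1 was raised with none of the 4 other treatments of the signal, and its median over all probes was -0.37.

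The lowered members were Id1, Bambi, Msx2, Cdx2, Nog and Smad7. Bambi, a decoy receptor that blunts TGF-beta family signals, averaged -4.73 ± 1.97 over 5 probes centred 299 bp upstream. Id1, an inhibitor of basic helix-loop-helix factors, averaged -3.93 ± 2.18 over 5 probes centred 1305 bp past its start site, at chr2:152478104-152478834 in the array annotation, which calls them downstream of the gene. Those Id1 probes read -6.41, -4.87, -5.11, -1.65 and -1.60, with immunoprecipitate signals of 252, 1231, 4118, 154 and 196 and input signals of 11977, 19987, 79161, 270 and 331. The first 3 Id1 probes thus had inputs more than 10 times those of the other 2. Msx2, a homeobox factor, averaged -3.33 ± 1.72 and Cdx2, a caudal homeobox factor of trophectoderm, -2.90 ± 2.09. Nog, the secreted BMP antagonist noggin, averaged -2.11 ± 0.66 and Smad7, an inhibitory SMAD, -1.65 ± 0.22. In these 6 windows the SMAD1/5 input exceeded the mean of the other 2 inputs by between 1.57 and 4.36 log2 units, while the immunoprecipitate differed from the other immunoprecipitates by between -1.48 and 0.19. With the mean input of the 3 antibodies as denominator, none of the 22 was raised or lowered.

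None of the other 15 targets was called. Among them Tbx3, a T-box factor, had the highest window, 2.36 ± 0.99 over 4 probes 3284 bp upstream, of which 3 were well above background in both channels. Hand1 reached 1.65 ± 0.64 over 4 probes, of which 3 were well above background. Tbx3 and Hand1 also had the highest gene medians of the list, 1.01 and 1.04, and Cdx2 and Id3 the lowest, -1.23 and -1.10. Id2, a further inhibitor of basic helix-loop-helix factors, had a highest window of 1.82 ± 1.09 over 6 probes 852 bp upstream, with 4 probes at 1 or more. Its promoter is shown because Id2 is a textbook BMP target with a high but uncalled window. The sequence is the RefSeq promoter at chr12:25096043-25096342 of GRCm38.p6, minus strand, with motif matches in capitals.
Id2: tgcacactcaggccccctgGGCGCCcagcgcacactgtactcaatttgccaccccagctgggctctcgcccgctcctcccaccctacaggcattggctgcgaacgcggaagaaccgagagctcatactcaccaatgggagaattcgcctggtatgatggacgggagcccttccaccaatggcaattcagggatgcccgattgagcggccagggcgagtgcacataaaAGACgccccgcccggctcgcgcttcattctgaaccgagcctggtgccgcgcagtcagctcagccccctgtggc
It held 1 match to GGCGCC and 1 to GTCT, as AGAC. The 6 probes of the high Id2 window lie from -1229 to -488 bp, outside this sequence if both sources use the same start site. Id2 probes at -285, -69 and 76 bp, in or beside the sequence by distance, read 0.25, -0.96 and 0.24. The highest windows of the other 12 uncalled targets, Id3, Id4, Smad6, Smad9, Msx1, Dlx3, Dlx5, Gata2, Gata3, Atoh8, Runx2 and Grem1, averaged between 0.22 for Id3 and 1.57 for Runx2.

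**Figure D2:**
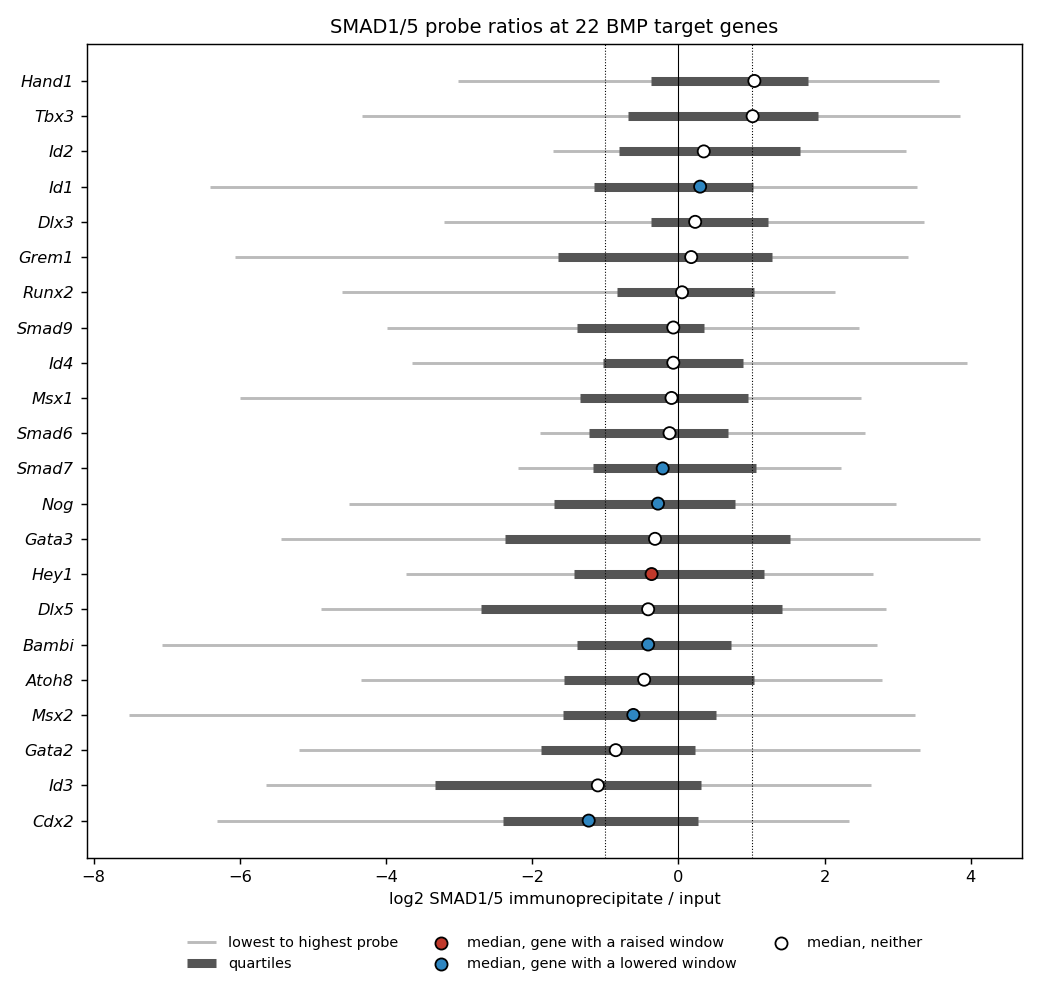
SMAD1/5 probe log2 ratios (horizontal axis) at the 22 BMP target genes (vertical axis), ordered by gene median. Thin lines run from the lowest to the highest probe, thick bars span the quartiles, and circles mark the median, red with a raised window, blue with a lowered one and white with neither. Gene medians run from -1.23 for Cdx2 to 1.04 for Hand1, and every gene has probes on both sides of 0.

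The most negative ratios came from a bright input. The 10 lowest lowered genes had window means between -7.64 and -6.19. Prodh2, a hydroxyproline dehydrogenase, was lowest, at -7.64 ± 0.73 over 4 probes, with immunoprecipitate signals of 609 to 1191 against input signals of at least 57216. Tnfrsf11a, the receptor RANK, averaged -7.52 ± 0.55 and Cdx4, a caudal homeobox factor, -6.78 ± 1.96. The others were Aadacl4fm1, Enox1, Tmem159, Psg16 (a pregnancy-specific glycoprotein), Mon1b, Slc25a34 and Peli2 (a ubiquitin ligase of the pellino family). In these 10 windows the SMAD1/5 input was higher than the average of the other 2 inputs by between 6.07 and 8.40 log2 units. The SMAD1/5 immunoprecipitate differed from the other immunoprecipitates by between -1.64 and 1.27 there.

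That held over the lowered windows at large. In the median of 3308 lowered windows the SMAD1/5 input lay 3.02 above the other inputs and the immunoprecipitate 0.19 below the other immunoprecipitates. The input was at least 1 log2 unit above the others in 94.0% of them, and the immunoprecipitate at least 1 below the others in 17.5%. Windows with an immunoprecipitate near background could not be called, so these shares depend in part on that filter. Over single probes well above background on every array, the SMAD1/5 input exceeded the average of the other 2 inputs by 4 log2 units or more for 9.67% and 5.81% of probes. The same share was at most 0.0399% for the SMAD2 and SMAD4 inputs. What made these inputs bright was not tested.

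Raised windows split between the channels. In the median of 1380 raised windows the SMAD1/5 immunoprecipitate lay 0.89 above the other immunoprecipitates and the SMAD1/5 input 0.31 below the other inputs. The immunoprecipitate was at least 1 log2 unit above the others in 41.4% of raised windows, and the input at least 1 below the others in 15.8%. Windows with an input near background could not be called, so this split also depends in part on the filter. Moxd2, Hsd11b1 and Myo6 had the largest excess in the immunoprecipitate among the 15 highest genes, 2.52, 2.05 and 2.00. Ccdc92b had the largest deficit of input, -1.69. Within an array, the immunoprecipitate followed its own input less closely for SMAD1/5 (r = 0.53 and 0.58 across probes) than for SMAD2 (0.83 and 0.82) or SMAD4 (0.79 on both).

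**Figure D3:**
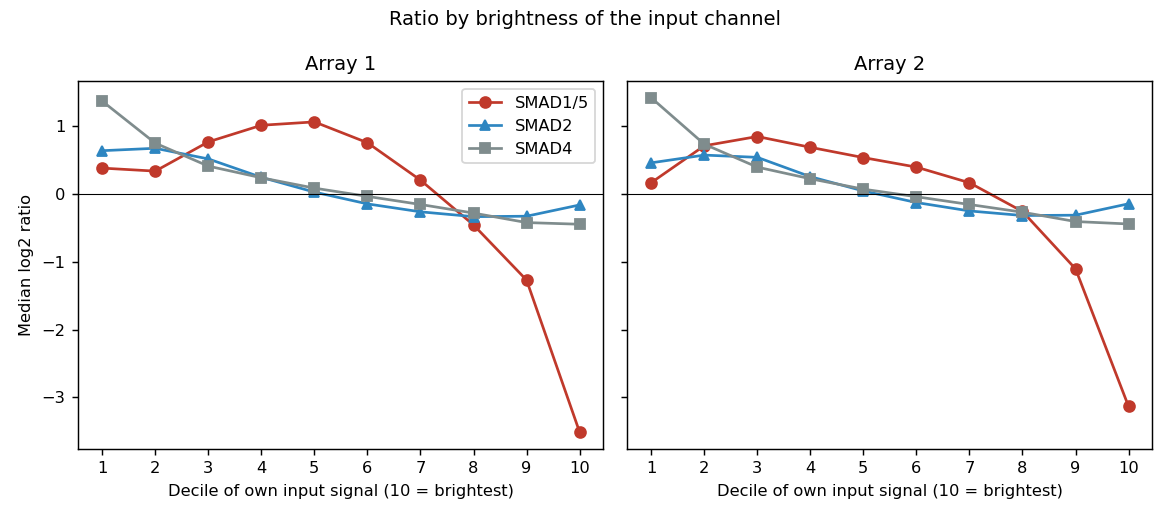
Median log2 ratio (vertical axis) in each decile of the array's own input signal (horizontal axis, 10 is brightest) for SMAD1/5, SMAD2 and SMAD4 on array 1 and array 2. Input is the denominator of the ratio. The SMAD1/5 median is 1.06 in the fifth decile of array 1 and -3.51 in its brightest decile, and -3.13 in the brightest decile of array 2.

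The array probes were also binned by their own input. The input is the ratio's denominator, so such bins lower the ratio in bright deciles by construction, and the values are a description. The median SMAD1/5 log2 ratio was 1.06 in the fifth decile of input signal on array 1 and -3.51 in the brightest, where the median input was 11419 and the median immunoprecipitate 2024. On array 2 the highest decile median was 0.85, in the third decile, and the brightest decile stood at -3.13. In the brightest deciles 92.6% and 90.6% of SMAD1/5 probes were at -1 or less. With SMAD4 the median was likewise lowest in the brightest decile, at -0.45 and -0.44, against 1.37 and 1.42 in the dimmest. With SMAD2 it was -0.16 and -0.14 in the brightest decile.

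Genes of BMP signalling itself were lowered more often than raised, as were genes in general, at 11.9% against 5.35%. Of 26 callable BMP ligands and antagonists, 1 was raised and 3 lowered, 3.85% and 11.5%. Bmp10, a ligand of heart and endothelium, averaged 1.93 ± 0.40 over 5 probes centred 493 bp upstream, which read 1.27, 2.24, 1.95, 1.94 and 2.27. Its immunoprecipitate signals of 438 to 877 stood against input signals of 82 to 118. Bmp10 was raised over the mean input of the 3 antibodies, but not with the mean signal minus background, with normexp or in the authors' values. Bmp4, a ligand of the early embryo, had a lowered window of -5.34 ± 1.92 and Gdf5, a ligand of joints, one of -2.67 ± 0.90. Of 25 callable receptors and SMAD proteins, 2 were raised and 7 lowered, 8.00% and 28.0%. The raised pair were Rgmb, a BMP co-receptor, at 1.99 ± 0.56 and Eng, the TGF-beta family co-receptor endoglin, at 1.71 ± 0.47. Of the 4 other treatments of the signal, Rgmb was raised only with the mean signal minus background and Eng with none. The lowered genes included Acvrl1, a type I receptor, at -3.59 ± 1.02, Smad1 itself at -2.82 ± 1.19 and Smurf2, a ubiquitin ligase for SMAD proteins, at -2.45 ± 1.00. Targets of Activin, Nodal and TGF-beta had none raised and 4 lowered of 19, or 21.1%, among them Eomes (-5.71 ± 1.72) and Gdf3 (-3.67 ± 0.70).

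The lists of the embryonic stem cell state and of early lineages held no raised gene, where the background share of 5.35% comes to about 1 gene in a list of their length. Of 24 callable pluripotency factors 2, 8.33%, Mycn and Stat3, were lowered, at -3.40 ± 0.74 and -2.69 ± 0.78. Lowered genes numbered 3 of 24 for mesoderm and endoderm, 4 of 18 for trophectoderm and 5 of 23 for neural and ectoderm genes. These shares were 12.5%, 22.2% and 21.7%, against 11.9% of all genes. The same lists had medians of 38, 39 and 37 probes per gene, against 28 over all genes. Gata4 and Twist1 (mesoderm and endoderm), Ascl2 and Tfap2c (trophectoderm) and Six3 and Zic1 (neural) were among the lowered, with window means between -4.86 for Ascl2 and -1.79 for Twist1. Gene medians of the neural and trophectoderm lists had medians of -0.39 and -0.40, and the pluripotency list 0.25.

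Chromatin regulators had 4 raised and 3 lowered of 27, 14.8% and 11.1%. Beside Kdm6b, the raised genes were Kdm1a, a histone demethylase of the LSD type, at 1.98 ± 0.30, Kdm5b, a lysine 4 demethylase, at 1.53 ± 0.54 and Cbx2, a Polycomb protein, at 1.45 ± 0.23. Of the 4 other treatments of the signal, Kdm1a and Kdm5b were raised only with the mean signal minus background, and Cbx2 with none and not with centred chromosomes, so of these 4 raised regulators Kdm6b alone kept its call with more than 1 treatment. Kdm5b also had a lowered window, at -2.45 ± 0.99, 949 bp into the gene. Kdm6a, the X-linked relative of Kdm6b, was lowered, at -1.67 ± 0.31 over 6 probes. The highest of these probes was -1.14, and the X chromosome as a whole had a median of -0.58. The Kdm6a call is therefore not free of the level of its chromosome. Of 44 clustered histone genes, 5 were raised and 5 lowered, 11.4% each, against 5.35% and 11.9% of all genes. The list had the highest median of gene medians, 0.41. H3c15 averaged 2.31 ± 0.77 and kept its call with centred chromosomes, but not with normexp or in the authors' values. H3c14 and H4c14 share 1 window at 2.02 ± 0.80, and neither H3c14 nor H4c14 was raised with centred chromosomes. Histone genes have near-identical copies, so their probes may read more than 1 gene.

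Ribosomal protein genes had 7 raised and 8 lowered of 79, 8.86% and 10.1%, against 5.35% and 11.9% of all genes. The highest raised were Rpl32 at 2.47 ± 0.92 and Rps16 at 2.16 ± 0.50. Neither was raised with normexp or in the authors' values, nor was Rpl32 over the mean input of the 3 antibodies. The Rps16 window was also high with SMAD2 and SMAD4, at 1.49 and 1.17. Cell cycle genes had 2 raised and 6 lowered of 36, 5.56% and 16.7%. The raised genes were Cdc6, a replication licensing factor, at 2.13 ± 0.56 and E2f1 at 1.51 ± 0.61, neither raised with any of the 4 other treatments. The WNT, FGF and Notch list had 2 raised and 6 lowered of 35, 5.71% and 17.1%, with Fgfr1, an FGF receptor, at 1.95 ± 0.43. Hox genes had 3 raised and 5 lowered of 33, 9.09% and 15.2%. Hoxa10 carried both calls, 2.07 ± 0.55 centred 1499 bp upstream and -3.59 ± 1.98 centred 167 bp upstream. Hoxc11 averaged 1.91 ± 0.81 with SMAD1/5 and 2.09 with SMAD4. Neither Hoxa10 nor Hoxc11 was raised with normexp or in the authors' values, nor was Hoxa10 over the mean input. Genes of adult tissues, silent in these cells by textbook knowledge, had 2 raised (Opn1sw and Ttr) and 3 lowered of 32, 6.25% and 9.38%, and neither Opn1sw nor Ttr was raised with any of the 4 other treatments. Olfactory receptor genes, also silent there, had 9 raised and 29 lowered of 469, 1.92% and 6.18%, against 5.35% and 11.9% of all genes. Only 469 of 790 measured olfactory receptor genes had a window bright enough to be called, against 14761 of 16329 genes in all. The shares are not matched for this.

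Raised SMAD1/5 windows were rarest at the start site, while lowered windows were common both there and far upstream. Of windows centred within 250 bp of a start site, 0.277% were raised and 3.64% lowered. At 2000 to 4000 bp upstream the shares were 1.28% raised and 1.52% lowered. The raised share was also lower at the start site with the other antibodies. It was 0.00440% there and 0.0444% upstream for SMAD2, and 0.147% and 0.622% for SMAD4. Their lowered shares were not higher at the start site, at 0.0792% against 0.384% for SMAD2 and 0.103% against 0.127% for SMAD4. The lowered share was 2.20% between -6000 and -4000 bp from the start site, 4.37% between -8000 and -6000 bp, where 504 windows were callable, and 2.15% at 2000 to 4000 bp into the gene. The mean log2 ratio of probes within 250 bp of the start site, minus that at 2000 to 4000 bp upstream, was -0.30 on array 1 and -0.49 on array 2. The same difference was 0.08 and 0.07 for SMAD2 and -0.20 on both arrays for SMAD4. Both SMAD1/5 channels were brighter at start sites, the immunoprecipitate by 0.87 and 0.62 and the input by 1.17 and 1.12. The sign of the SMAD1/5 difference was not stable: with the mean signal minus background it was 0.03 and -0.20, and with normexp 0.02 and 0.15.

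**Figure D4:**
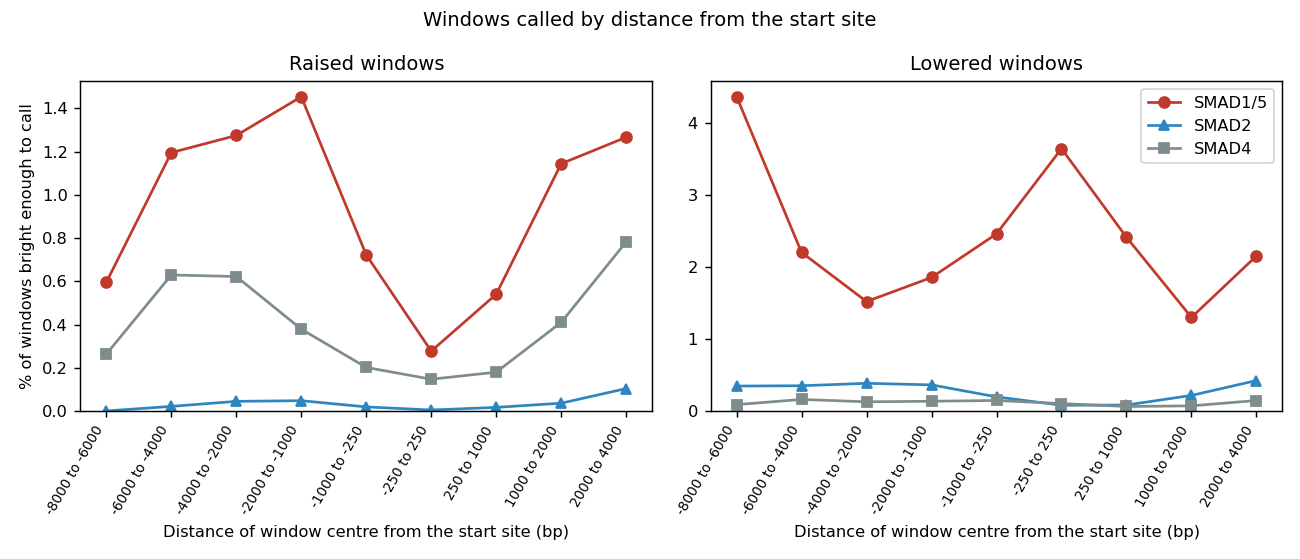
Share of callable windows that were raised (left) and lowered (right), in percent, against distance of the window centre from the start site in bp, for SMAD1/5, SMAD2 and SMAD4. The SMAD1/5 share of raised windows is 0.277% within 250 bp of the start site and 1.28% at 2000 to 4000 bp upstream, and the share of lowered windows 3.64% and 1.52%, with 4.37% between -8000 and -6000 bp.

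Among the autosomes, chromosomes 8 and 11 had the highest median log2 ratios of SMAD1/5. The median log2 ratio was 0.40 on chromosome 8 and 0.28 on chromosome 11, against values between -0.01 and 0.06 with SMAD2 and SMAD4. Raised windows made up 2.50% of callable windows on chromosome 8 against 1.54% on all of array 1, and 1.08% on chromosome 11 against 0.595% on all of array 2. Inputs were brighter on both chromosomes with every antibody, by 0.43 to 0.69. The X chromosome stood lower, at -0.58 with SMAD1/5, and the 47 probes of chromosome M had a median of 0.38. With each chromosome centred on its own median, 717 genes were raised, of which 640 were raised before. Man2b1, a lysosomal mannosidase, Wwc2 and Meak7, all on chromosome 8, lost their calls. Klhl26, also on chromosome 8, and Kdm6b, on chromosome 11, kept theirs.

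Gene medians had quartiles of -0.40 and 0.39 over all genes. Pnpla6, a phospholipase of neurons, had the highest median of genes with at least 10 probes, 1.99, followed by Ccndbp1, Mrps5, Man2b1 and Tmem147, all at 1.73 or more. Of these 5 only Man2b1 had a raised window, 2.05 ± 0.77 over 7 probes centred 225 bp upstream. The lowest medians were those of Pdhx, a subunit of the pyruvate dehydrogenase complex (-2.86), Olfr1121, Skint3, Skint9 and Olfr418. Skint3, Skint9 and Olfr1121 had no window bright enough to be called, and their low medians rest on probes that were mostly dim. In the highest Skint3 window the median immunoprecipitate signal was 21.5 and the median input signal 77.4.

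Raised SMAD1/5 genes were shared with the other antibodies about as often as callable genes in general. On the SMAD4 arrays 4.87% of callable genes were raised and 1.42% lowered, and on the SMAD2 arrays 0.271% and 1.82%. Of genes callable with both antibodies, 50 were raised with SMAD1/5 and with SMAD4, 6.33% of the SMAD1/5 genes and 6.93% of the SMAD4 genes. Over all 14759 such genes, 4.89% were raised with SMAD4 and 5.35% with SMAD1/5, so the overlap was near the background. With SMAD2, 3 genes were shared, 0.385% of 780 raised SMAD1/5 genes and 7.69% of 39 raised SMAD2 genes. Lowered genes shared 22 with SMAD4 and 31 with SMAD2, 1.26% and 1.79% of the SMAD1/5 genes, against 1.22% and 1.80% of all genes. Across probes the log2 ratios of SMAD1/5 correlated at 0.02 to 0.03 with those of SMAD2 and SMAD4. The protocol text of the SMAD2 arrays names the SMAD1/5 antibody, while their titles name SMAD2, and the titles were followed. The SMAD4 arrays were extracted with a different software version and protocol, so extraction and antibody cannot be told apart there.

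**Figure D5:**
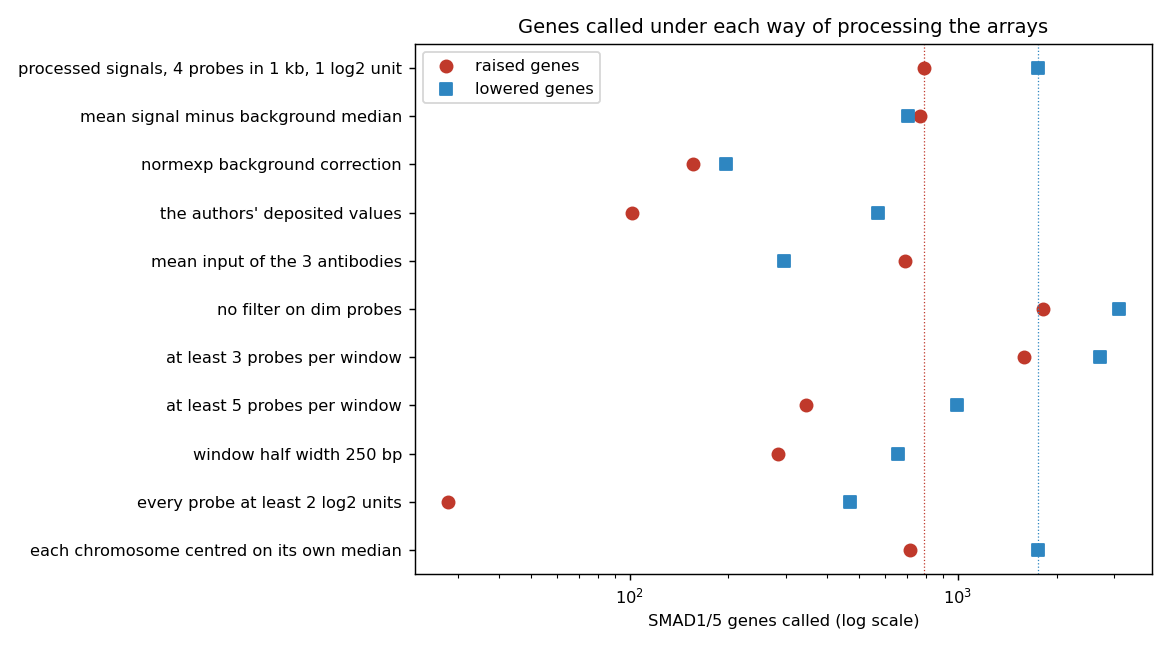
Number of genes with a raised window (circles) and with a lowered window (squares) for SMAD1/5 (horizontal axis, log scale) under each way of processing the arrays (vertical axis). The processed signal gives 790 raised and 1754 lowered genes, shown as dotted lines, and the other settings give 28 to 1823 raised and 196 to 3099 lowered.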

How the data were processed

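The arrays measured chromatin immunoprecipitation on a mouse promoter design in R1 cells, with 1 biological replicate per antibody. Per the file headers, the deposited intensity values were background-subtracted and dye-normalised by Agilent Feature Extraction, version 9.1.3.1 for SMAD1/5 and SMAD2 and 9.5.3.1 for SMAD4. The scanner files also hold other columns, flags of 0 or 1, set by that software per the file headers. The authors' deposited log2 values correlated with the scanner log2 ratios of SMAD1/5 at 0.74 and 0.86 over probes. The submitters' processing notes name limma for them, with no version, and their scale and centring stay unknown. Their medians were 0.08 and -0.01 for SMAD1/5.

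From the processed signals, log2 of red over green was taken for 237195 and 237185 probes and centred on each array's median. Spots with an outlier flag were left out, at most 0.0194% on the SMAD1/5 arrays. Windows of 500 bp to each side were scored as the report describes, with Python 3.11.15, numpy 2.4.6 and pandas 2.3.3. The window code was tested on simulated data. Gene names were updated through RefSeq accessions for 16161 array names, by symbol for 311 and by older symbol for 197, and 190 kept the array's name, which gave 16806 genes. The promoter table lists sequences for Hsd11b1 and Id2. Distances and chromosomes are those of the array annotation.

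Named genes were the 15 highest raised genes also raised with the mean signal minus background, the 10 lowest lowered genes under the mirrored condition, all BMP targets, up to 4 raised and 4 lowered members of every other list, Kdm6b and Dpysl2, and the 5 highest and 5 lowest gene medians over at least 10 probes. Names of clone type were left out, and 1 gene that the rule names is not reported here. The members, lists and rules were chosen with earlier results of these data known. Alternatives were mean signal minus background, normexp with an offset of 50 (limma 3.58.1 in R 4.3.3), the authors' values, the mean of the 3 inputs, no filter on dim probes, 3 or 5 probes, 250 bp and a height of 2. Centring each chromosome was added after seeing the data.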

Additional observations from a re-analysis of the deposited data

Results flagged for a closer look

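The mean log2 ratio of SMAD1/5 within 250 bp of start sites, less that at 2000 to 4000 bp upstream, was -0.298 on array 1 and -0.492 on array 2. It is given here because both arrays of SMAD2 went the opposite way, at 0.08 and 0.07, and that difference between the antibodies was not tested. SMAD4 went the same way as SMAD1/5, at -0.20 on both arrays. With normexp the SMAD1/5 values were 0.015 and 0.152, so both took the sign SMAD2 had with the processed signal, and with the mean signal minus background they were 0.032 and -0.202. With 1 biological replicate per antibody no test of it was possible, and the arrays of 1 antibody carry different promoters of the same DNA.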

How the results depend on the processing

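No paired analysis was possible because the numbers 1 and 2 in the titles mark separate arrays with different probes of 1 biological replicate, which also leaves no replicate to leave out. Against 790 raised and 1754 lowered genes, normexp gave 156 and 196, the authors' values 102 and 573, no filter on dim probes 1823 and 3099, at least 3 probes 1597 and 2708, at least 5 probes 344 and 995, 250 bp 284 and 657, and a height of 2 gave 28 and 468. Lowered genes came to 705 with the mean signal minus background and to 296 with the mean of the 3 inputs. Raised genes stayed within 1.5 times of 790 with these settings, at 768 and 691. Of the 790, 445 were raised with the mean signal minus background, 232 with the mean input, 60 with normexp and 45 in the authors' values. Centring each chromosome, added after seeing the data, gave 717 and 1757. Raised BMP targets, 1 at first, numbered 0 with the mean signal minus background, normexp, the authors' values, the mean input, 250 bp and a height of 2, and 3 without the filter. Lowered BMP targets, 6 at first, numbered 1, 0, 3 and 0 with the first 4 of these settings and 1 with 250 bp and with a height of 2. The start site difference on arrays 1 and 2, -0.298 and -0.492, was 0.032 and -0.202 with the mean signal minus background, 0.015 and 0.152 with normexp, -0.035 and -0.208 in the authors' values and -0.129 and -0.349 with the mean input. Since it had no filter on dim probes, that alternative was turned round, and with probes well above background alone it was -0.348 and -0.549. Of 111 named windows, 4 turned positive with normexp (Smad7 0.16, Nog 0.041, Kdm6a 0.39 and Fgf8 0.21) and 2 with the mean input (Olfr741 0.18 and H1f2 0.23). The cause of these differences was not tested. Dim inputs set what could be called, since 41.3% of SMAD1/5 windows had every probe well above background in both channels.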
